A study of Mus musculus with 6 samples.

Results

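The T cell receptor beta chain is encoded by the Trb locus of mouse chromosome 6, and the 53 gene models of that locus (35 Trbv, 2 Trbd, 14 Trbj and 2 Trbc) were described here across sorted lymphocytes of the gut epithelium. They are every row of the deposited table with a T cell receptor biotype and a symbol starting with Trb, out of 55487 rows. Annotation set the members, but the choice was made with earlier results of these data known. RNA was sequenced from 2 groups of 3 libraries, sorted as live lymphocytes from small-intestinal epithelium of wild-type C57BL/6J mice. The B220+CD3ε+CD45+ group is labelled X cells and the B220-CD3ε+CD45+ group T cells. Neither group is labelled as treated, the labels state neither age nor sex of the mice. Whether each library stands for its own mouse is not stated, so a p-value covers the spread among libraries only, and that spread may be technical.

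A beta chain is built by joining 1 D to 1 J segment and then 1 V segment to that pair, and the joined exon is spliced to a constant region, Trbc1 or Trbc2. The V segment encodes most of the variable domain, and the third complementarity-determining region, the part that contacts peptide most, is made at the V-D-J junction. The enzymes Rag1 and Rag2 cut at signals beside each segment in developing thymocytes, and each mature αβ T cell keeps the rearrangement it made there. Usage below means a segment's share of RNA read counts in a pool of cells. Such counts are not counts of rearrangements. Epithelial lymphocytes of the mouse gut hold many γδ T cells and innate-like CD8αα αβ T cells beside conventional CD4 and CD8αβ T cells.

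The sequences of the segments set the scale of what a count can tell apart, and those that carry the main results are given here from GENCODE release M21 transcripts (GRCm38, the mm10 build of the deposited coordinates, in which all 53 models have the same position). Trbv12-1 and Trbv12-2, which have Trbv13-1 between them, moved in opposite directions. Their V exons lie at chr6:41113775-41114067 and chr6:41119072-41119364 on the plus strand, both 293 bases long, and differ at 32 bases (89.1% identity, longest identical stretch 44 bases). Capitals mark the bases that differ from the other segment.
Trbv12-1: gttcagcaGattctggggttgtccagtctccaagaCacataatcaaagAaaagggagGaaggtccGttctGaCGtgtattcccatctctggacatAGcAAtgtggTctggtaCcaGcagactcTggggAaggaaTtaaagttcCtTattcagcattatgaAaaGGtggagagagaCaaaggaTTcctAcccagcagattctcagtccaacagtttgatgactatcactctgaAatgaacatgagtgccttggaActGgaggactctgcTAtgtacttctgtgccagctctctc
Trbv12-2: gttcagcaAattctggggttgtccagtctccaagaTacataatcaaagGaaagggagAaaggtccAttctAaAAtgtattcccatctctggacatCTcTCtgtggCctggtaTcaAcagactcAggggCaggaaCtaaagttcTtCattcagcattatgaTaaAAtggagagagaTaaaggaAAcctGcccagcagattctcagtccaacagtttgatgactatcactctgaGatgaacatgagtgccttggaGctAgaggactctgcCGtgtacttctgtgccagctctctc
The differences are spread over the exon, and no stretch of 50 bases was shared between Trbv12-1 and another Trb member. Trbv12-2 shared 1.19% of its 50-base stretches, all with the pseudogene Trbv12-3.

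The other V segments called below and the most counted one end with the following germline bases, in which capitals run from the codon of the second conserved cysteine to the end of the segment, the stretch that starts the third complementarity-determining region. Each is the last 40 bases of the V exon on the plus strand, at chr6:41135577-41135616 for Trbv14, chr6:41227954-41227993 for Trbv26 and chr6:41152191-41152230 for Trbv16.
Trbv14: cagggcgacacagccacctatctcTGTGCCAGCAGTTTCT
Trbv26: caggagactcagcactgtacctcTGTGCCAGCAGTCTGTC
Trbv16: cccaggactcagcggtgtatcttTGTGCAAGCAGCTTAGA
The V exons of Trbv14 and Trbv26 are 55.1% identical, against 89.1% for the Trbv12 pair.

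The D and J segments are short, and the following are shown because they span the range of J counts or carry none of the shared motif. Capitals mark the phenylalanine-glycine motif (searched as TTN, GGN and NNN followed by GG, on both strands) by which a J segment folds into the variable domain. The motif was present on the plus strand in 11 of 14 Trbj segments, on the minus strand in 0 and in 0.525% of 50-base windows of V exons. Trbj1-6, Trbj1-7 and Trbj2-6 held no match.
Trbj1-5: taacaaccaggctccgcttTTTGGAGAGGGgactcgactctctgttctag
Trbj2-1: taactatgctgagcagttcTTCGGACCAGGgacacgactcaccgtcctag
Trbj2-5: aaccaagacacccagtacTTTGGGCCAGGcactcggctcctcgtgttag
Trbj2-6: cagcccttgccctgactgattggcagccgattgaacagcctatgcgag
Trbd1: gggacagggggc
Trbd2: gggactgggggggc
They lie at chr6:41535084-41535133, chr6:41542754-41542803, chr6:41543453-41543501 and chr6:41543598-41543645 for the J segments in that order, and at chr6:41533201-41533212 and chr6:41542163-41542176 for Trbd1 and Trbd2.

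Library totals ran between 11320363 and 39591312 counts, and all Trb members together took 0.114% to 0.129% of a library in the B220+ group and 0.115% to 0.126% in the B220− group. Of those counts, 2389 to 7174 per B220+ library and 2373 to 4445 per B220− library fell on Trbv models, and 824 to 3304 and 741 to 1330 on Trbj models. The 95% Wilson interval of a segment's share had a half-width of at most 1.59 percentage points for Trbv and 2.66 for Trbj, and it covers counting error only. B220+ replicate 2 was the deepest library. Defining T cell genes were abundant, with Cd3g, a chain of the CD3 complex, at 1426 ± 116 CPM (counts scaled to library size) in B220+ libraries and 1255 ± 50.9 CPM in B220− libraries (SD, n = 3 each). Ms4a1, the least counted of 7 B cell markers, had 3 counts over all 6 libraries, while 3 of the 7 passed the filter on low counts. The B cell markers summed to 265 to 406 CPM in B220+ and 175 to 446 CPM in B220− libraries, mostly from Ighm and Igkc. Summed levels in B220+ and B220− libraries were 6.02 to 24.4 and 12.9 to 103 CPM for 3 plasma cell markers, 96.8 to 142 and 53.9 to 107 CPM for 8 epithelial markers, and 382 to 534 and 251 to 323 CPM for 5 myeloid markers. Itgax, an integrin that T cells of the epithelium also express, made up most of the myeloid sum with 431 ± 78.5 CPM over B220+ and 278 ± 42.5 CPM over B220− libraries (edgeR adjusted p = 0.0554, and 1.99e-06 with the replicate number as a block). Of these markers 3 B cell, 2 plasma cell, 8 epithelial and 4 myeloid genes were tested. Among them 2 were called, both lower in B220+, against 11.1% of all 14722 genes tested. They were the lysozyme gene Lyz2 with 0.303 ± 0.147 CPM over B220+ and 2.07 ± 0.573 CPM in B220− (edgeR adjusted p = 0.00200) and the plasma cell gene Sdc1 with 0.846 ± 0.390 CPM over B220+ and 3.77 ± 2.37 CPM in B220− (0.0203, and up to 0.127 with a library left out). With the block, where 17.5% of all genes were called, Ighm was called as well, with 253 ± 34.4 CPM over B220+ and 155 ± 36.6 CPM in B220− (edgeR adjusted p = 8.41e-07), as was Muc2, with 0.822 ± 0.760 CPM over B220+ and 1.98 ± 0.745 CPM in B220− (0.0169). Muc2 had 4 to 40 counts per library and was the 1 of 8 epithelial markers called with the block. The summed level of the 8 epithelial markers ran the other way, with overlapping ranges. The part of these cells in the results was not tested.

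The constant regions carried most of the locus' counts, and neither passed the test between groups. Trbc1, the constant region behind the first J cluster, stood at 341, 353 and 409 CPM in B220+ replicates 1, 2 and 3, against 351, 320 and 351 CPM in B220− replicates 1, 2 and 3. Trbc2, behind the second cluster, stood at 525, 563 and 608 CPM in B220+ and 620, 541 and 581 CPM in B220− replicates. For both genes the groups overlapped. The log2 fold changes, B220+ over B220−, were 0.11 (SE 0.080) and −0.038 (SE 0.078), with adjusted p of 0.493 and 0.845 by edgeR's quasi-likelihood test with Benjamini-Hochberg adjustment over 14722 genes.

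Beside this, the partner chains divided. Trac, the constant region of the α chain that pairs with β, averaged 486 ± 41.5 CPM over B220+ libraries and 484 ± 29.6 CPM over B220− libraries. Trgc1, of the γ chain, stood at 890.2 ± 64.8 and 526 ± 27.0 CPM, and Trdc, of the δ chain, at 995 ± 66.7 and 783 ± 34.6 CPM, each B220+ before B220−, and both were called higher in B220+ (edgeR adjusted p 4.46e-05 and 0.00977, the second 0.0524 without B220− replicate 3, with reads of Trdc not separable from those of the overlapping Trdv5 and Gm43434). In a pool, fewer cells that express a gene and less RNA of it per cell cannot be told apart, and this holds for every level given here.

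Among the 11 genes of the receptor complex and its partner chains, 10 were tested, of which 3 were called higher and 1 lower, against 5.58% and 5.56% of all 14722 genes tested. With the replicate number as a block these counts were 4 and 1, against 8.85% and 8.6% of all genes. Trgc4, the third called higher, averaged 429 ± 43.2 CPM over B220+ libraries and 357 ± 12.8 CPM over B220− libraries, and it was called in 0 of the 6 edgeR fits with a library left out (adjusted p between 0.0502 and 0.193). The member called lower was Cd247, the ζ signalling chain, with 166 ± 9.01 CPM over B220+ libraries and 236 ± 22.9 CPM over B220− libraries (log2 fold change −0.51, SE 0.080, edgeR adjusted p = 0.00107). Its model overlaps that of Pou2f1. Of 15 genes of V(D)J recombination 12 were tested and 0 were called by edgeR, against 11.1% of all genes, and 0 with the replicate block, against 17.5%. Rag1 and Rag2 had 0 counts in all 6 libraries, and Dntt, the enzyme that adds bases at the junction, had 28 counts in all. Of 8 genes of innate-like T cells 3 were tested and 0 called by edgeR, against 11.1% of all genes. Among them Zbtb16, the transcription factor PLZF of innate-like lymphocytes, stood at 14.2, 12.2 and 9.55 CPM in B220+ replicates 1, 2 and 3, against 2.75, 7.54 and 3.76 CPM in B220− replicates. The groups did not overlap, as was so for 28.1% of all genes tested (log2 fold change 1.34, SE 0.36, edgeR adjusted p = 0.0597, and 6.78e-05 to 0.189 with a library left out). Zbtb16 was the 1 gene of this list called with the block (0.0349), against 17.5% of all genes.

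The share of constant-region counts on Trbc1 was higher in each B220+ library. It was 39.3%, 38.5% and 40.2% in B220+ replicates 1, 2 and 3, against 36.2%, 37.2% and 37.7% in B220− replicates. The difference of means was 2.35 percentage points, and the two-sided exact permutation test gave p = 0.1, the smallest that 3 libraries against 3 allow (0.3 adjusted over the 9 summary values of the locus). The coding sequences of Trbc1 and Trbc2 are 95.3% identical with an unbroken identical stretch of 259 bases, and 40.5% of the 50-base stretches of Trbc1 occur in Trbc2, so the split depends on how reads with several matches were counted, which is not given in the sources used here.

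Usage of V segments was broad in both groups. The effective number of Trbv segments, the exponential of the Shannon entropy of the shares, was 14.7, 14.5 and 14.5 in B220+ replicates 1, 2 and 3 and 14.2, 14.1 and 15.2 in B220− replicates (difference 0.067, exact permutation p = 1.0). The 4 most counted segments of a library held 43.9% to 45.9% of its Trbv counts in B220+ and 44.5% to 49.5% in B220− cells. By mean share, 17 of the 35 Trbv models reached 1% of Trbv counts.

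Trbv16 led in every library and by counts per length as well, at 19.3 ± 1.64% of per-kilobase Trbv counts in B220+ and 18.3 ± 2.68% in B220− cells. RefSeq lists it under the older name Tcrb-V11. Its counts were 464, 1531 and 505 in B220+ replicates 1, 2 and 3, and 858, 760 and 371 in B220− replicates 1, 2 and 3. As shares of Trbv counts these were 19.4%, 21.3% and 18.1% in B220+, against 19.3%, 20.6% and 15.6% in B220− libraries. The groups overlapped, and Trbv16 was not called (log2 fold change −0.11, SE 0.12, edgeR adjusted p = 0.671).

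Trbv13-2, used by invariant natural killer T cells of mice as well as by conventional T cells, came next per length, at 11.6% of per-kilobase counts over the 6 libraries. By plain share it stood at 9.92%, 9.05% and 11.0% in B220+ and 10.8%, 9.15% and 10.2% in B220− replicates 1, 2 and 3. The groups overlapped fully (log2 fold change −0.20, SE 0.14, edgeR adjusted p = 0.455). The rearranged α segments of those cells and of mucosal-associated invariant T cells had few counts, with Trav11 at 0, Traj18 at 15, Trav1 at 39 and Traj33 at 5 over all 6 libraries.

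**Figure D1:**
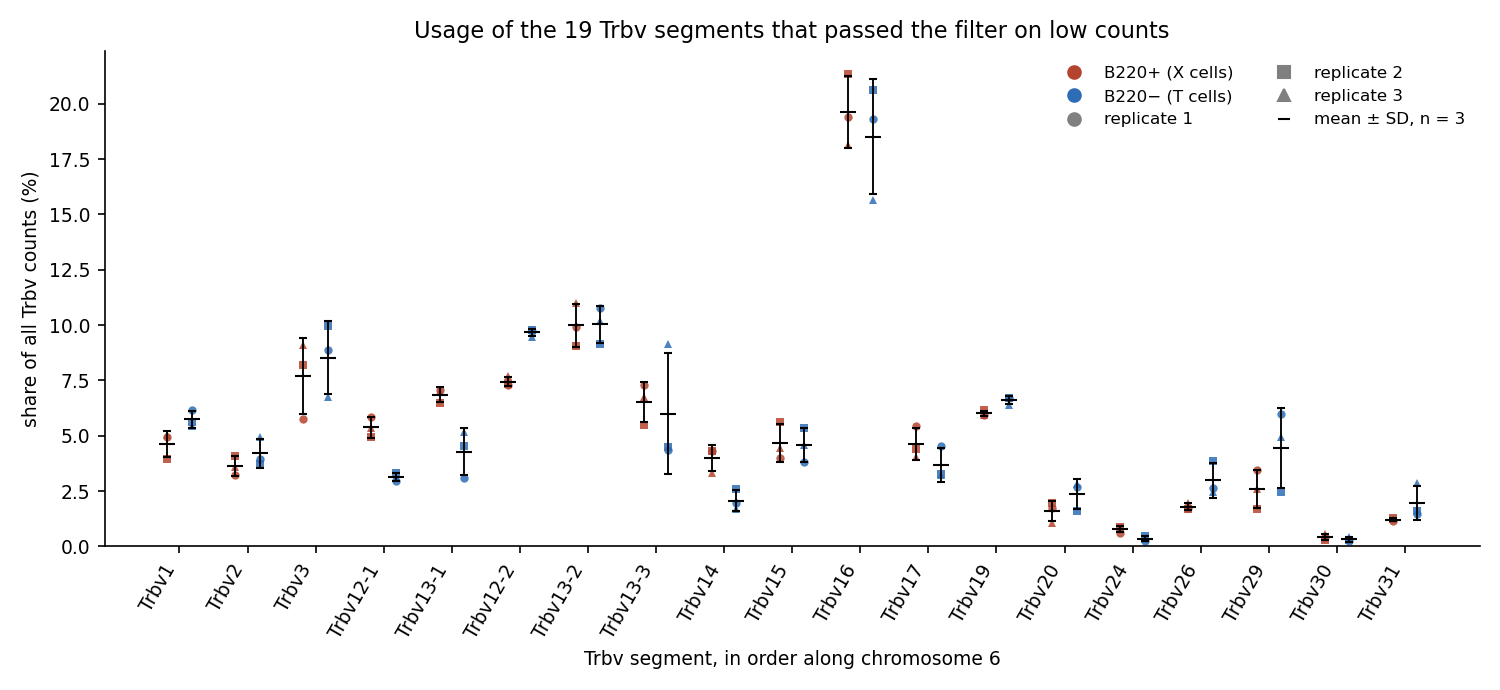
Share of all Trbv counts (%) for the 19 Trbv segments that passed the filter on low counts, in order along chromosome 6, with B220+ libraries left of B220− libraries, symbols for replicates and bars for the mean ± SD (n = 3 each). Trbv16 is highest in all 6 libraries (15.6% to 21.3%). Trbv12-1, Trbv13-1, Trbv14 and Trbv24 lie higher in every B220+ library, and Trbv1, Trbv12-2, Trbv19, Trbv26 and Trbv31 lie lower.

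Of the 53 members, 36 had enough counts to be tested, and 4 were called, 2 higher and 2 lower, all of them Trbv segments. This is 11.1% of the members tested, and 11.1% of all 14722 genes tested were called (5.58% higher and 5.56% lower). By class, 4 of 19 Trbv and 0 of 14 Trbj segments were called. The share of members called was 17.8% with no filter on low counts, against 8.41% of all genes, and 12.8% by DESeq2, against 9.62%. The median log2 fold change over the 19 Trbv segments tested was −0.20 and that over the 14 Trbj segments 0.17, against −0.0074 over all genes tested. Fitting the replicate number as a block gave 8 calls, 3 higher and 5 lower, against 17.5% of all genes (8.85% higher and 8.6% lower).

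Trbv12-2, listed by RefSeq under the older name Tcrb-V5.1, fell in B220+ cells. Its counts were 174, 528 and 214 in B220+ replicates 1, 2 and 3, and 433, 361 and 225 in B220− replicates. As shares of Trbv counts these were 7.28%, 7.36% and 7.68% in B220+, against 9.74%, 9.80% and 9.48% in B220− libraries. Every B220+ library lay below every B220− library, and the spread within each group was small (SD 0.213 and 0.168 percentage points). On the level scale its mean was 14.4 ± 0.973 CPM over B220+ libraries and 21.2 ± 1.92 CPM over B220− libraries (log2 fold change −0.57, SE 0.11, adjusted p = 0.00610 by edgeR). Leaving out any of the 6 libraries kept the call, with edgeR adjusted p between 0.00905 and 0.0469.

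Trbv12-1 (Tcrb-V5.2 in older usage), which lies upstream of it on the same strand with Trbv13-1 in between, rose. It had 140, 354 and 149 counts in B220+ replicates and 132, 123 and 74 counts in B220− replicates, or 5.86%, 4.93% and 5.35% of Trbv counts in B220+ against 2.97%, 3.34% and 3.12% in B220−. The groups did not overlap. Its level averaged 10.4 ± 1.48 CPM over B220+ libraries and 6.85 ± 0.337 CPM over B220− libraries (log2 fold change 0.59, SE 0.16, edgeR adjusted p = 0.0297). The call was lost without B220+ replicate 1 (0.113), B220+ replicate 3 (0.0893), B220− replicate 2 (0.0513) or B220− replicate 3 (0.104).

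Summed over the family, the opposite movements of the pair nearly cancelled. Together the Trbv12 models held 12.9 ± 0.464% of Trbv counts in B220+ and 12.8 ± 0.309% in B220− cells (difference 0.017 percentage points, exact permutation p = 1.0). Within the pair, Trbv12-1 held 44.6%, 40.1% and 41.0% in B220+ replicates 1, 2 and 3, against 23.4%, 25.4% and 24.7% in B220− replicates. This ratio was chosen after the values were seen and is given without a test. Trbv12 receptors, known as Vβ5 in the older nomenclature, are removed in the thymus by viral superantigens in mouse strains with the class II molecule I-E, which C57BL/6 mice lack.

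Trbv14 (Tcrb-V13) also rose in B220+ cells, with 103, 311 and 92 counts in B220+ replicates and 87, 95 and 40 counts in B220− replicates. Its share of Trbv counts was 4.31%, 4.34% and 3.30% in B220+ libraries and 1.96%, 2.58% and 1.69% in B220− libraries, with no overlap. The level averaged 7.69 ± 1.12 CPM over B220+ libraries and 4.52 ± 0.954 CPM over B220− libraries. The log2 fold change was 0.75 (SE 0.20, adjusted p = 0.0296 by edgeR). The call was lost when B220+ replicate 1 (0.102), B220+ replicate 2 (0.118) or B220− replicate 3 (0.111) was left out.

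Trbv26 (Tcrb-V3.1), another segment whose receptors superantigens remove in some strains, fell. Counts were 41, 123 and 55 in B220+ replicates 1, 2 and 3 and 117, 143 and 58 in B220− replicates, or 1.72%, 1.71% and 1.97% of Trbv counts in B220+ against 2.63%, 3.88% and 2.44% in B220−. Each B220+ library lay below each B220− library. The level averaged 3.49 ± 0.397 CPM over B220+ libraries and 6.49 ± 1.52 CPM over B220− libraries (log2 fold change −0.92, SE 0.22, edgeR adjusted p = 0.0159). Without B220+ replicate 2 the adjusted p was 0.0959, and without B220− replicate 2 it was 0.0632.

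**Figure D2:**
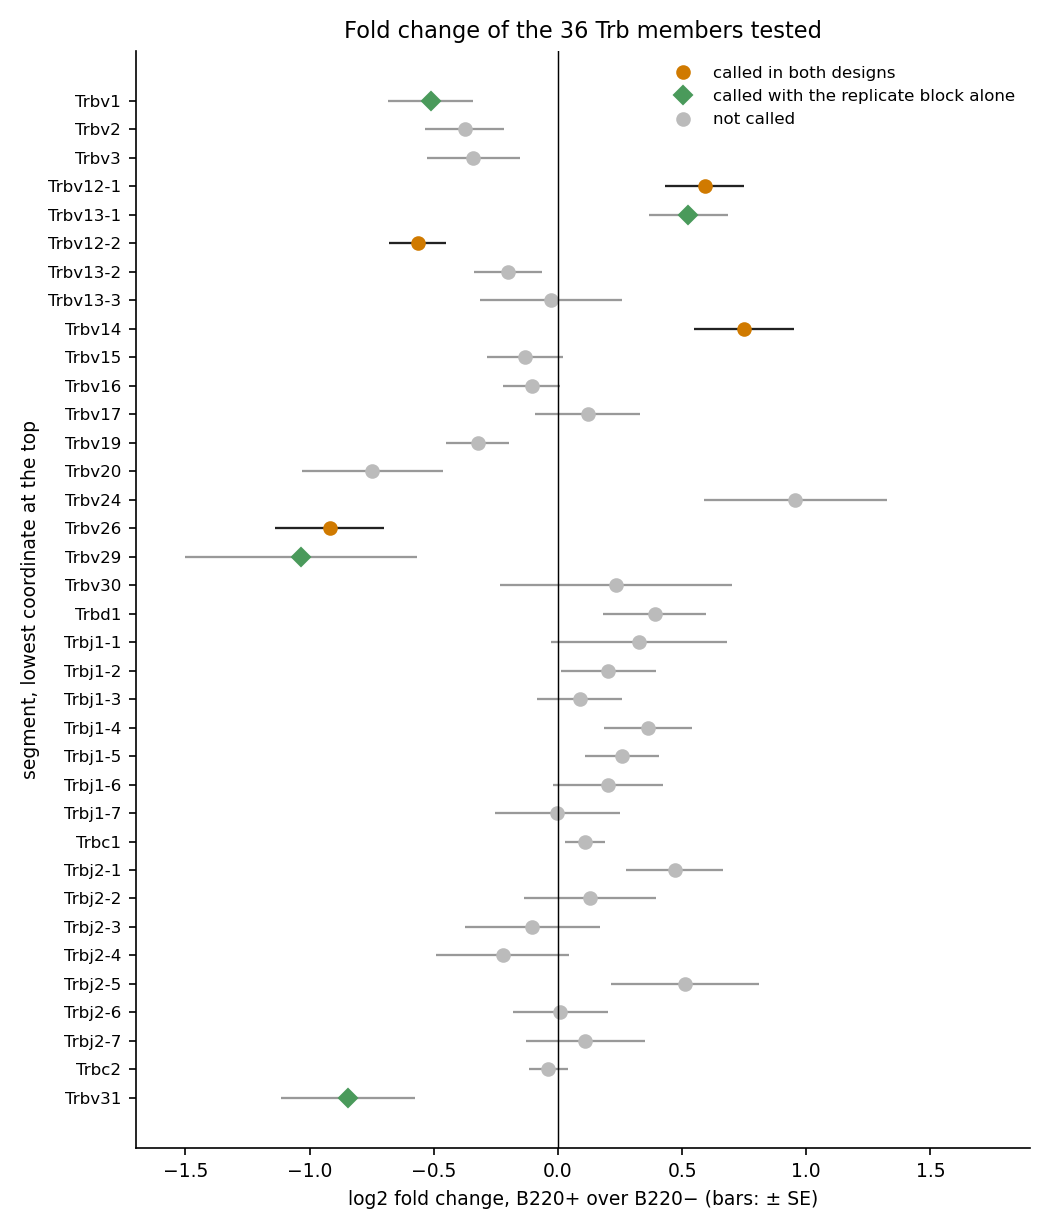
Log2 fold change, B220+ over B220−, with its SE, of the 36 Trb members tested, from the lowest to the highest coordinate of the locus. The 4 members called with and without the replicate block are all Trbv segments on both sides of 0. A further 4 Trbv segments are called with the block but not in the main fit, and the 14 Trbj segments lie between −0.22 and 0.51.

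How far a fall in level is a fall in usage depended on the scale. Summed Trbv counts were themselves lower in each B220+ library, at 203, 181 and 197 CPM in B220+ replicates 1, 2 and 3 against 239, 209 and 207 CPM in B220− replicates (exact permutation p = 0.1, the smallest possible, 0.3 adjusted over 9 values). When libraries were scaled to their summed Trbv counts, which moved the median of all genes by 0.18 on the log2 scale, Trbv12-2 was at −0.38 (edgeR adjusted p = 0.0665) and Trbv26 at −0.74 (0.0629), and neither was called. On that scale Trbv12-1 (0.77, adjusted p = 0.0110), Trbv14 (0.93, 0.0168) and Trbv13-1 (0.69, 0.0358) were called higher and 0 segments lower, against 11.4% of all genes called in either direction. Scaling all members to summed Trbj counts, an alternative chosen after the data were seen, gave 0 higher and 5 lower (Trbv1, Trbv12-2, Trbv20, Trbv26 and Trbv31), against 10.6% of all genes. On that scale Trbv12-1 was at 0.44 (edgeR adjusted p = 0.209) and Trbv14 at 0.59 (0.102), and neither was called.

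With the replicate block 4 further Trbv segments were called. Trbv13-1 (Tcrb-V8.3) lies between Trbv12-1 and Trbv12-2 and had the direction of Trbv12-1. Its share was 7.07%, 6.47% and 7.04% in B220+ replicates 1, 2 and 3, against 3.10%, 4.56% and 5.18% in B220− replicates, without overlap (log2 fold change 0.53, SE 0.16, edgeR adjusted p = 0.0543, and 0.0204 with the block). The Trbv13 family as a whole held 24.3%, 21.02% and 24.8% of Trbv counts in B220+ and 18.2%, 18.2% and 24.5% in B220− libraries, and the groups overlapped (exact permutation p = 0.3).

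Trbv1 (Tcrb-V2), the most upstream segment, stood at 4.94%, 3.94% and 5.03% in B220+ and 6.19%, 5.62% and 5.44% in B220− replicates (log2 fold change −0.51, SE 0.17, edgeR adjusted p = 0.0802, and 0.0212 with the block). Trbv31 (Tcrb-V14), the one V segment that lies downstream of the constant regions and on the minus strand, so that it joins by inversion, stood at 1.13%, 1.30% and 1.22% in B220+ and 1.48%, 1.601% and 2.87% in B220− replicates (−0.84, SE 0.27, edgeR adjusted p = 0.0649, and 0.0272 with the block). For both segments the groups did not overlap.

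Trbv29 (Tcrb-V7) varied with the replicate number in both groups. Its share was 3.43%, 1.71% and 2.59% in B220+ replicates 1, 2 and 3, and 5.98%, 2.47% and 4.93% in B220− replicates. In both groups replicate 1 was highest and replicate 2 lowest, and in each number the B220+ library was below the B220− one. The groups overlapped, and the log2 fold change of −1.03 had an SE of 0.47 (edgeR adjusted p = 0.272, and 4.64e-04 with the block). DESeq2, fitted without the block, called it as well (adjusted p = 0.0366). The deposited table types Trbv29 as a functional V segment, while RefSeq types it as a pseudogene, and for Trbv24 the 2 sources differ the other way.

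**Figure D3:**
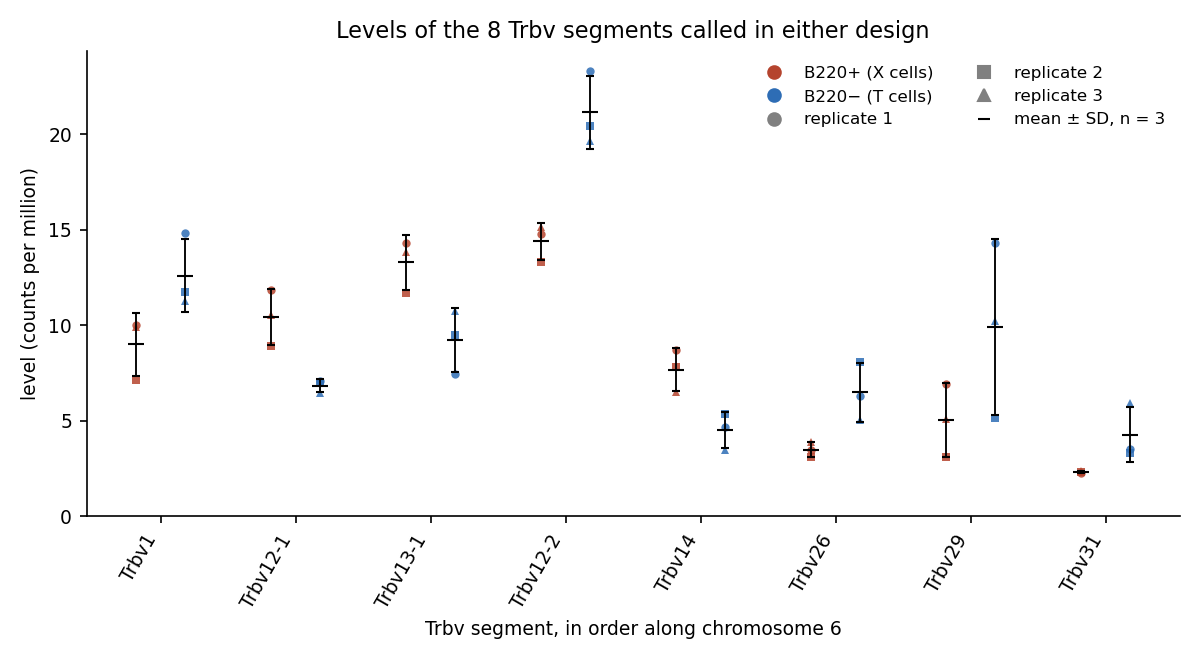
Level in CPM of the 8 Trbv segments called with or without the replicate block, B220+ libraries left of B220− libraries, with symbols for replicates and bars for the mean ± SD (n = 3 each). Trbv12-1, Trbv13-1 and Trbv14 lie higher in all 3 B220+ libraries, Trbv1, Trbv12-2, Trbv26 and Trbv31 lie lower, and the 2 groups overlap for Trbv29.

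The other leading V segments did not pass the test. Trbv3 held 5.78%, 8.196% and 9.12% of Trbv counts in B220+ replicates 1, 2 and 3 and 8.89%, 9.96% and 6.74% in B220− replicates, which overlap (log2 fold change −0.34, SE 0.19). Trbv19, used by mucosal-associated invariant T cells among others, held 5.94%, 6.16% and 5.96% in B220+ against 6.73%, 6.73% and 6.41% in B220−, which do not overlap (−0.32, SE 0.13, edgeR adjusted p = 0.139).

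Trbv13-3 held 7.28%, 5.51% and 6.75% in B220+ replicates 1, 2 and 3 and 4.36%, 4.50% and 9.14% in B220− replicates. Its spread in the B220− group, a coefficient of variation of 45.3%, was the largest of the 19 Trbv segments tested in either group, and B220− replicate 3 alone stood high. The same library also had the highest share of Trbj2-7, at 13.1% against 6.64% and 8.50% in the other B220− libraries. Without it, the log2 fold change of Trbv13-3 was 0.33, against −0.029 with all libraries, and neither was called.

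Of the 19 Trbv segments tested 10 had groups that did not overlap in CPM, 4 higher and 6 lower in B220+, against 28.1% of all genes tested (14.1% higher and 13.9% lower). Among them Trbv24, a pseudogene in the deposited annotation, stood at 0.628%, 0.878% and 0.826% in B220+ against 0.247%, 0.488% and 0.337% in B220− libraries (log2 fold change 0.96, SE 0.37, adjusted p = 0.131 by edgeR). This segment made up most of the counts on V pseudogenes, whose share of Trbv counts was 0.862 ± 0.177% in B220+ and 0.398 ± 0.126% in B220− cells (exact permutation p = 0.1, 0.3 adjusted over 9 values).

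The remaining V models were rarely counted. Of the 16 not tested, 8 pseudogenes (Trbv7, Trbv8, Trbv9, Trbv10, Trbv11, Trbv25, Trbv27 and Trbv28) had 0 counts in all libraries, which allows a share of up to 0.0418% in the library with most Trbv counts and 0.126% in that with fewest, taking 3 counts as the limit. The other 8 had 2 to 54 counts over the 6 libraries. They included Trbv4, Trbv5, Trbv21 and Trbv23, which the deposited table types as functional. The tested Trbv segments held 99.5% of all Trbv counts. The 6 trypsinogen genes matched by symbol, digestive enzyme genes that lie inside the locus, summed to 0.170 to 0.428 CPM in B220+ and 0.215 to 0.437 CPM in B220− libraries, all from Prss2.

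For Trbj usage 0 of 14 segments were called between the groups, with or without the replicate block, by edgeR or by DESeq2. With 741 to 3304 Trbj counts per library, a lack of calls does not show that usage was alike. At an unadjusted p under 0.05 the edgeR count was 1 of 14 Trbj and 11 of 19 Trbv segments, against 22.4% of all genes. Trbj1-5 led per length and by share, with 139, 584 and 186 counts in B220+ replicates 1, 2 and 3 and 182, 229 and 121 in B220− replicates, or 16.9%, 17.7% and 18.3% of Trbj counts in B220+ against 16.1%, 17.2% and 16.3% in B220−. The groups overlapped (log2 fold change 0.26, SE 0.15, edgeR adjusted p = 0.345).

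Trbj2-6, a pseudogene without the shared motif, was the second most counted J model. It took 9.34%, 11.2% and 10.6% of Trbj counts in B220+ replicates 1, 2 and 3 and 10.9%, 12.9% and 11.2% in B220− replicates. The groups overlapped (log2 fold change 0.010, SE 0.19). Within the second J cluster it held 21.2%, 26.2% and 25.4% of counts in B220+ and 24.6%, 29.4% and 24.1% in B220− replicates.

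**Figure D4:**
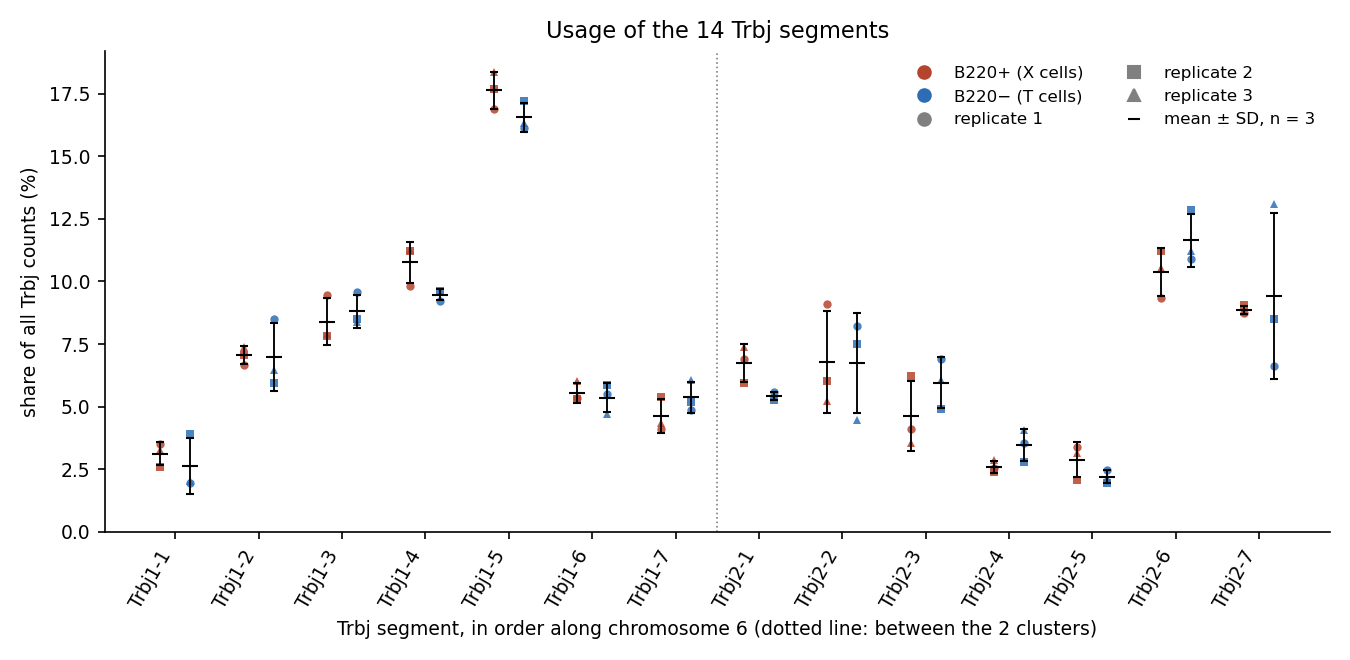
Share of all Trbj counts (%) for the 14 Trbj segments in order along chromosome 6, B220+ libraries left of B220− libraries, with symbols for replicates and bars for the mean ± SD (n = 3 each). Trbj1-5 is highest in all 6 libraries (16.1% to 18.3%), Trbj2-4 and Trbj2-5 are among the lowest, and most segments overlap between the groups.

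Trbj1-4 and Trbj2-1 were the Trbj segments whose shares did not overlap between the groups. Trbj1-4 stood at 9.83%, 11.2% and 11.2% in B220+ against 9.21%, 9.62% and 9.58% in B220− libraries (log2 fold change of level 0.36, SE 0.18, edgeR adjusted p = 0.251). Trbj2-1 stood at 6.92%, 5.93% and 7.40% in B220+ against 5.58%, 5.26% and 5.40% in B220− libraries (0.47, SE 0.19, edgeR adjusted p = 0.166). On the level scale 3 of 14 Trbj segments, Trbj2-1, Trbj2-4 and Trbj2-5, had groups that did not overlap, a share below that of all genes.

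The rest of the 8 most counted J segments overlapped between groups. Trbj2-7 held 8.74%, 9.05% and 8.78% in B220+ and 6.64%, 8.50% and 13.1% in B220− replicates 1, 2 and 3. Trbj1-3 held 9.47%, 7.81% and 7.89% in B220+ and 9.57%, 8.50% and 8.37% in B220− replicates, and Trbj1-2 held 6.67%, 7.08% and 7.40% in B220+ and 8.50%, 5.94% and 6.48% in B220− replicates. Trbj2-2 held 9.10%, 6.02% and 5.23% in B220+ and 8.24%, 7.52% and 4.45% in B220− replicates, so that replicate 1 was highest and replicate 3 lowest in both groups.

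The first J cluster, upstream of Trbc1, took 55.8%, 57.1% and 58.5% of Trbj counts in B220+ replicates 1, 2 and 3, against 55.7%, 56.2% and 53.6% in B220− replicates (difference 1.95 percentage points, exact permutation p = 0.2). The effective number of Trbj segments was 12.2 ± 0.173 in B220+ and 12.2 ± 0.155 in B220− cells. Summed Trbj levels were 69.9, 83.2 and 71.7 CPM in B220+ against 60.8, 75.4 and 64.8 CPM in B220− replicates, which overlap (exact permutation p = 0.3), and in both groups replicate 2 was highest. Within each replicate number the B220+ library was the higher one for the summed Trbj level, the share of the first J cluster and the Trbv13 family share. Tested within numbers, each of the 3 gave an exact sign-flip permutation p of 0.25, the smallest that 3 pairs allow. Any 3 pairs with 1 direction give this p, so it adds nothing to the directions themselves. Trbv counts per Trbj count were 2.90, 2.17 and 2.75 in B220+ and 3.94, 2.77 and 3.20 in B220− replicates, lower in the B220+ library of each replicate number.

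The D segments, which lie before each J cluster, received unequal counts. Trbd1 had 85, 225 and 119 counts in B220+ replicates 1, 2 and 3 and 80, 101 and 70 in B220− replicates, or 7.21, 5.67 and 8.42 CPM in B220+ against 4.31, 5.72 and 6.12 CPM in B220−, which overlap (log2 fold change 0.39, SE 0.21, edgeR adjusted p = 0.304). Trbd2 had 6, 13 and 3 counts in B220+ and 8, 4 and 3 in B220− replicates and was not tested. The 2 segments are 12 and 14 bases long, so any read on them mostly covers sequence beside them.

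Across all 35 Trbv models, the libraries of the B220+ group were closest to each other. The share of Trbv usage that differed between 2 libraries, summed over the segments higher in 1 of them, was 6.57 to 8.17 percentage points among the 3 pairs of B220+ libraries and 8.41 to 12.7 among the 3 pairs of B220− libraries. Between the groups it was 9.85 to 14.1 for the 3 pairs with the same replicate number and 10.9 to 16.0 for the 6 pairs with different numbers. Pairs within a group differed by more than counting error, with a chi-square per degree of freedom of 2.12 to 3.59 in B220+ and 5.55 to 7.02 in B220−. For Trbj usage the ranges ran together, at 5.45 to 8.15 among B220+ libraries, 7.98 to 9.12 among B220− libraries and 6.08 to 11.6 between groups. The pairs share libraries, and no test was made of these distances.

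**Figure D5:**
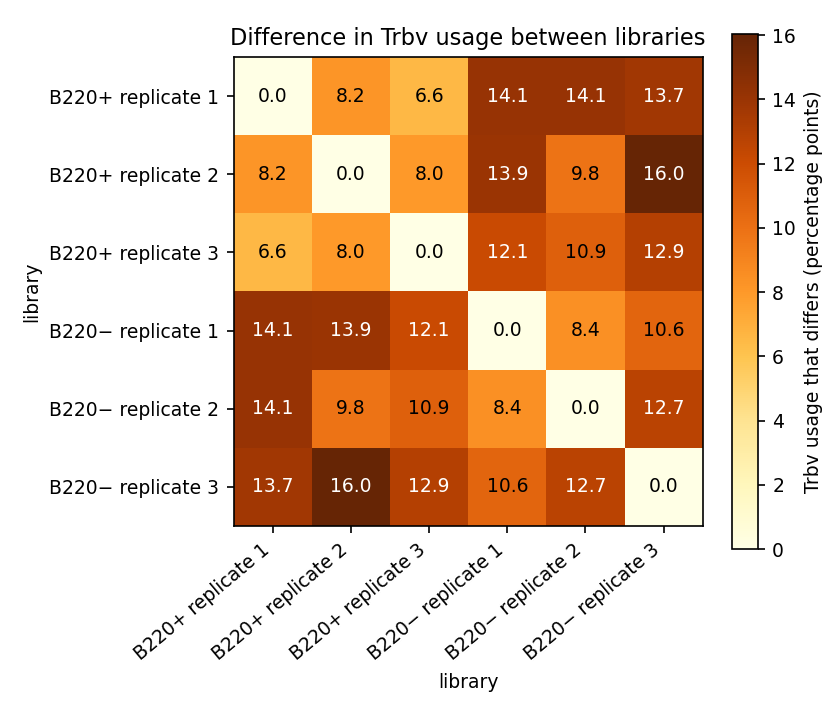
Trbv usage that differs between each pair of libraries, in percentage points of Trbv counts (differences summed over the segments higher in 1 of the 2 libraries), with B220+ libraries first. Values within the B220+ block (6.6 to 8.2) are below those of the B220− block (8.4 to 12.7), and those between groups reach 16.0.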

How the data were processed

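Each library has 1 deposited column of raw read counts by gene, without normalization. The submitters' processing notes list FastQC 0.11.7 and Trimmomatic 0.38, the aligner HISAT2 2.1.0, then SAMtools 1.9, featureCounts 1.6.3 and the build mm10. The kit was directional, per the labels' protocols. How the authors counted reads with several matches, or reads that touch 2 models (such as J and C), is not given, and neither is the read length. A read across a V(D)J junction matches the genome in pieces, so counts per segment are not counts of rearrangements.

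Members and lists were chosen with earlier results of these data known. A share is a segment's count over all Trbv or all Trbj counts of a library, and CPM uses trimmed-mean scaled library sizes. The fit across all genes used edgeR 4.0.16 in R 4.3.3 (filterByExpr with minimum count 10 and total 15, robust quasi-likelihood F test, group alone). Genes were called at a Benjamini-Hochberg adjusted p under 0.05. The procedure was tested on simulated data, where the share of false calls ran above that threshold, and further above it with the replicate block. No replicate effect is described for the simulated counts. The simulation therefore cannot show whether the block raises false calls in these data, where libraries with the same replicate number were correlated. Values of 1 number per library were compared by two-sided exact permutation tests. Alternatives were DESeq2 1.42.0, relative log expression factors, scaling to summed Trbv or Trbj counts, no filter, a replicate block and leaving out each library. Libraries with the same replicate number had correlated deviations from their group means (0.295, 0.246 and 0.272 over 14722 genes). On this basis the numbers were taken to pair libraries. Other pairs were at −0.203 to −0.0675, but deviations from a group's own mean cancel within that group. Positive values for same-number pairs therefore force negative ones elsewhere, so the contrast adds no separate evidence of pairing. This pairing comes from the data, and the labels do not state it. Calls that the replicate block added to the main fit rest, in that fit, on a pairing read from the same counts. Segments were described one by one where they were a constant or D segment, among the 8 Trbv or 8 Trbj segments of highest mean share, or called. The others named were chosen after their values were seen. Sequences and lengths came from GENCODE M21, and older names from RefSeq (GRCm38.p6). One marker gene of the lists is not reported here.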

Additional observations from a re-analysis of the deposited data

How the results depend on the processing

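Depth limits these results, since a library held at most 7174 Trbv and 3304 Trbj counts. The 4 called Trbv segments kept their direction under every alternative run, though not always their call. Members called numbered 8 with the replicate block, 8 with no filter, 5 with DESeq2, 4 with relative log expression factors and 2 to 5 with 1 library left out. They numbered 3 when scaled to summed Trbv counts and 5 when scaled to summed Trbj counts, both counts added after the data were seen. Genes called numbered 2569 with the replicate block and 970 to 1789 with 1 library left out. The replicate block ended no member's call, and its 4 added calls are those given above. Of those 4, Trbv1, Trbv13-1 and Trbv31 were also called without the block when no filter was used (edgeR adjusted p 0.0188, 0.0129 and 0.0305). Trbv29 was called by DESeq2. Members that changed sign were not called in either fit, and the cause was not tested. With the replicate block Trbv13-3 was at 0.018 and Trbj2-6 at −0.0091 (log2 fold changes), and Trbj1-7 was at 0.0013 with no filter. Scaling to summed Trbv counts put Trbv13-3 at 0.13, Trbv15 at 0.048, Trbv16 at 0.083 and Trbc2 at 0.14. It left 13 of 14 Trbj segments above 0, against 11 in the main fit. Scaling to summed Trbj counts moved the median of all genes by −0.17 and put Trbv17 at −0.0545, Trbj1-3 at −0.081, Trbj2-2 at −0.026, Trbj2-6 at −0.16 and Trbj2-7 at −0.067. On that scale Trbc1 was also below 0. With 1 library left out the log2 fold changes ran over both signs for Trbv13-3 (−0.216 to 0.331), Trbv17 (−0.0364 to 0.397), Trbv30 (−0.0624 to 0.577), Trbj1-7 (−0.256 to 0.112), Trbj2-2 (−0.0895 to 0.316), Trbj2-3 (−0.538 to 0.0839), Trbj2-6 (−0.156 to 0.196), Trbj2-7 (−0.13 to 0.363), Trbc2 (−0.0895 to 0.0144). The difference in effective number of segments ran over −0.115 to 0.411 for Trbv (−0.122 over functional segments alone) and −0.117 to 0.0639 for Trbj, and that of the Trbv12 family share over −0.127 to 0.284 percentage points.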
